A study of Mus musculus with 6 samples.

Results

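Enzymes of glycolysis and genes of the response to low oxygen were compared between mouse embryo fibroblasts (MEFs) lacking p38α (KO, p38α-/-, n = 3 cultures) and wild-type MEFs (WT, n = 3 cultures). The set holds 39 genes by symbol, of which 21 encode glycolytic enzymes or their neighbours at pyruvate, 8 encode regulators of the hypoxia-inducible factors (HIFs) and 10 are HIF targets. A gene entered when the RefSeq accession of an array probe mapped to its symbol. This gave 30 genes with a named probe among 10634 named genes on the array, each with 1 probe, and 29 of them were tested. No named probe was found for Pfkfb3, Aldoc, Pdk1, Pdk2, Egln1, Hif1an, Car12, Ddit4 and Ankrd37, and Higd1a was left untested because its spot was masked on 5 of 6 arrays.

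Both kinds of MEF came from a mixed background of 129/svev and C57Bl/6, had become immortal spontaneously under the 3T3 protocol, and carried a stable transgene of oncogenic H-Ras G12V, so that the WT cultures also carried active Ras. p38α is a protein kinase of the stress-activated class and is the product of Mapk14, and the series asks how gene expression relates to its tumour suppressor role in Ras-expressing cells. Cultures grew for 72 h in 10% serum and were harvested at 70 to 90% confluence, in exponential growth. No low-oxygen treatment is named in the labels. Total RNA was hybridised to 1 CodeLink 20K array per culture. The labels call the cultures biological replicates without saying whether they were separately derived lines, so p-values measure only the spread between these cultures.

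Glycolysis splits glucose into pyruvate in a chain of cytosolic steps, several of which are served by isoenzymes from different genes, and lactate dehydrogenase then interconverts pyruvate and lactate. HIF is a pair of proteins, an oxygen-labile alpha subunit (Hif1a or Epas1) and the stable partner Arnt. In oxygenated cells prolyl hydroxylases of the Egln family mark the alpha subunit, the Vhl ubiquitin ligase binds the marked protein and it is degraded, so much of its control lies in the protein and not in the RNA measured here. HIF binds DNA at the core letters ACGTG or GCGTG and raises transcription of many glycolytic genes and of targets such as Bnip3 and Adm, and Egln3 is itself a known HIF target that feeds back on the pathway.

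The upstream sequences of 5 genes are shown, picked from members that changed in KO cultures, are described below and carry the core letters. They are Bnip3, Adm and Ldha, which were higher in KO, and Ldhb and Egln3, which were lower. Hk1, Pfkp and Aldoa, which also rose and carry the letters in a window, are not printed. Gpi1, Tpi1, Eno2 and Vhl rose and had no match in their windows. Each line gives the 250 bases before the annotated start, 5′ to 3′ on the gene's strand, from RefSeq on GRCm38.p6. Capitals mark every match to ACGTG or GCGTG on either strand, so that a match on the other strand reads CACGT or CACGC, and CACGTG is a match on both strands. The windows are Bnip3 at chr7:138909507-138909756 on the minus strand, Adm at chr7:110627407-110627656 on the plus strand, Ldha at chr7:46845554-46845803 on the plus strand (1 of its 2 annotated starts), Ldhb at chr6:142507958-142508207 on the minus strand and Egln3 at chr12:54203875-54204124 on the minus strand.
Bnip3: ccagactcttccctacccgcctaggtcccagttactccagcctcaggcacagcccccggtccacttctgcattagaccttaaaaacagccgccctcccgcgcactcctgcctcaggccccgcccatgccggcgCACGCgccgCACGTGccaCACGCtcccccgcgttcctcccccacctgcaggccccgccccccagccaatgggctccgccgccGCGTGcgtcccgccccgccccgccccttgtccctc
Adm: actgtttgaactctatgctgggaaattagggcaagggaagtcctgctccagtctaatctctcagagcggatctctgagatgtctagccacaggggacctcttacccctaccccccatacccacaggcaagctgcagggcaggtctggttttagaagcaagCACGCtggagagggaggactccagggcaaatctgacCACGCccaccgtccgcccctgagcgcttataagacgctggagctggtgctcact
Ldha: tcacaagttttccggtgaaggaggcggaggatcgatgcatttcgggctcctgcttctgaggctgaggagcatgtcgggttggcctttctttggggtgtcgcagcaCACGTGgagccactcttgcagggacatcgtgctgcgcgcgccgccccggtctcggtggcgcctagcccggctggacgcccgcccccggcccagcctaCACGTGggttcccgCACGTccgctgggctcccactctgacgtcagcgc
Ldhb: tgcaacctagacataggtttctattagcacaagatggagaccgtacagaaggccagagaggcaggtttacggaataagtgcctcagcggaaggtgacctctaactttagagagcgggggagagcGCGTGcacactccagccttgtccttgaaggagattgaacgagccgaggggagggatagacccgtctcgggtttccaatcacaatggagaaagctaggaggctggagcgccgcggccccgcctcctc
Egln3: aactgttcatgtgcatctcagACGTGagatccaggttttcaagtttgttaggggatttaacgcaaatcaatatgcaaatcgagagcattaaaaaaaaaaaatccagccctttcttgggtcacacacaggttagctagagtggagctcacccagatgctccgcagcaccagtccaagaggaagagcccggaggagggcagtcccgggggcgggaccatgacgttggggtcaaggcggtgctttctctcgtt

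Bnip3 had 5 matches, at 117, 108, 107, 99 and 35 bases before its start, those at 108 and 107 being the same letters read on the 2 strands. The printed Ldha window also had 5 matches, with CACGTG standing at 2 places, and the window of the other Ldha start had 1. Adm had 2 matches, and Ldhb and Egln3 had 1 each, the Egln3 match lying 229 bases before the start. Of all 32851 annotated windows of this length, 38.6% held at least 1 match. Taken over any window of a gene, the share was 41.5% of all 27025 genes, 51.9% of the 8355 genes tested on the array and 84.0% of the 25 tested members with a window (21 genes). Among these members a match was present in 6 of 10 that were higher in KO, in both that were lower and in all 13 that did not pass the test. The letters were thus not confined to members that changed. A match is a run of letters and not a binding site, and no binding was measured.

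By the scanner's own mark, 8684 to 10240 probes of 19801 for genes exceeded background on an array, and precision is limited by the small number of arrays. KO replicate 3 stood apart: it had the fewest such probes (43.9%, against up to 51.7%), the highest local background (median 61 units of intensity, 49 to 53 elsewhere) and the lowest correlations of log2 signal within its group, 0.986 and 0.987, against 0.996 between the other KO arrays and 0.996 to 0.997 between WT arrays. Mapk14, the deleted gene, had a log2 difference of -0.94 between KO and WT (adjusted p = 7.8e-05) and was above background on 1 of 3 KO arrays and all 3 WT arrays. The Hras probe differed by 0.31 (adjusted p = 0.14). Of the fibroblast markers, Col1a2, Col5a1, Vim, Pdgfrb, Sparc and Ddr2 were above background on every array and Thy1 and Fap on none. Of markers of other cell types, 5 of 6 for macrophages and blood (not Cd14), 5 of 5 for endothelium, 3 of 3 for muscle and 6 of 7 for epithelium stayed near background on every array. The epithelial exception, Krt18, was above background in KO alone. Summed background-subtracted intensities before normalization did not overlap for the epithelial markers (99.6 to 160 in KO and 23.4 to 34.4 in WT cultures), the fibroblast markers (24483 to 31716.5 in KO and 14496.8 to 17125.8 in WT) or the macrophage and blood markers (1433.5 to 1908.4 in KO and 929 to 1303.7 in WT). KO arrays were also brighter in general before normalization, with median intensities of 18.8 to 21.7 units, against 15.9 to 17.5 on WT arrays. Most of the macrophage and blood sum was Cd14 (1425 to 1898 units in KO), which did not pass after normalization (adjusted p = 0.075). Most of the epithelial sum in KO was Krt18 (91.2 to 137 units), which passed (adjusted p = 1.1e-05). After normalization Vim (1.77-fold) and Sparc (1.76-fold) were higher in KO and Pdgfrb was 1.47-fold lower (adjusted p = 8.8e-04, 9.3e-05 and 0.0012). The part of these differences in the results below was not tested. In bulk RNA a change in the share of cells expressing a gene and a change in RNA per cell cannot be told apart.

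More of the measured genes were higher in KO than lower. Of 29 genes tested, 12 rose in KO (41.4%), 2 fell (6.9%) and 15 did not pass the test, against 10.4% higher and 12.1% lower of all 19590 gene probes tested with limma at a Benjamini-Hochberg adjusted p under 0.05. The median difference, KO minus WT in normalized log2 signal, was 0.35 over the 29 genes and -0.01 over all probes, and 23 of the 29 were above 0. Of all calls, 46.3% were higher in KO, or 64.1% when arrays were scaled by their medians. Every KO culture lay above every WT culture for 15 genes and below for 3, against 16.7% and 19.3% of all probes. Probes above background on all 6 arrays were called more often in general, 18.8% higher and 22.2% lower of 8053, and of the 24 members among them 10 were higher and 1 lower, with a median difference of 0.42. Members were chosen by symbol with earlier results of these data known, so these shares are descriptions and not a test. Members also share pathways, so they are not independent of each other.

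**Figure D1:**
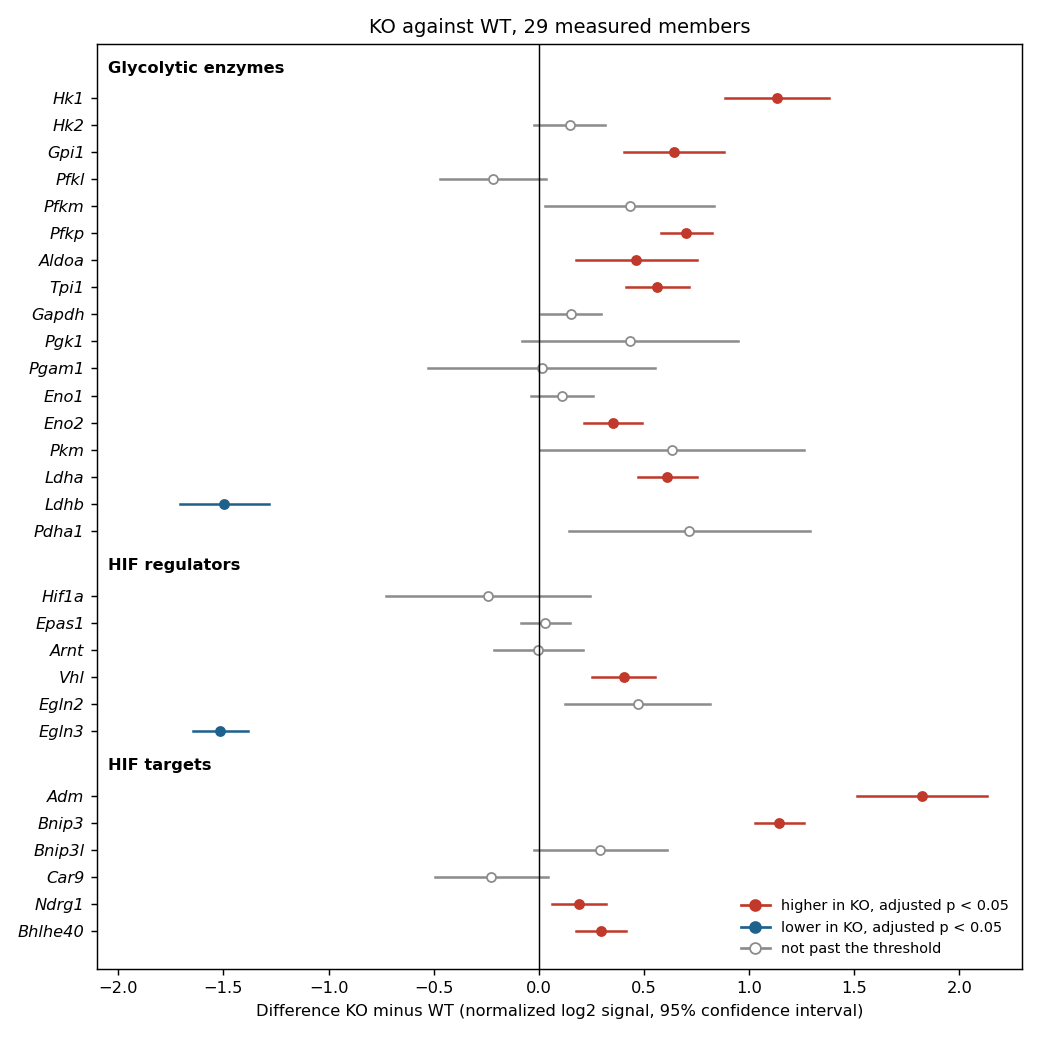
Difference between KO and WT in normalized log2 signal (x axis) for each of the 29 genes tested (y axis, ordered by pathway step or role); points are limma estimates, bars are 95% confidence intervals, and filled points passed an adjusted p of 0.05. Most filled points lie right of 0, between 0.19 (Ndrg1) and 1.82 (Adm), with Ldhb at -1.50 and Egln3 at -1.52 (3 KO and 3 WT cultures).

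Along the glycolytic chain, 7 of 17 genes tested were higher in KO, 1 was lower and 9 did not pass, with a median difference of 0.43. The shares were 41.2% higher and 5.9% lower, against 10.4% and 12.1% over all gene probes. Without KO replicate 3 the count higher was 11. The genes that rose serve steps from hexokinase to lactate dehydrogenase: Hk1, Gpi1, Pfkp, Aldoa, Tpi1, Eno2 and Ldha. Between Tpi1 and Ldha only Eno2 passed, a gene near background on every WT array, and Gapdh, Pgk1, Pgam1, Eno1 and Pkm did not. The gene that fell was Ldhb. At the hexokinase, phosphofructokinase, enolase and lactate dehydrogenase steps the measured isoenzymes did not share 1 result.

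Hk1 encodes the hexokinase that is present in most tissues and commits glucose to the cell by phosphorylating it. Its normalized log2 signal was 9.18, 9.23 and 9.35 in KO cultures, against 7.98, 8.35 and 8.02 in WT cultures. All KO values lay above all WT values, and the difference of 1.13 (SE 0.11) was a 2.19-fold rise (adjusted p = 1.8e-04). Hk2, the insulin- and growth-responsive hexokinase and a HIF target, read 8.52, 8.29 and 8.38 in KO, against 8.30, 8.27 and 8.19 in WT. The groups overlapped, and the difference of 0.15 (95% confidence interval -0.02 to 0.31) did not pass (adjusted p = 0.23).

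Gpi1, the isomerase that turns glucose-6-phosphate into fructose-6-phosphate, read 12.23, 12.27 and 12.52 in KO cultures and 11.62, 11.86 and 11.61 in WT cultures, without overlap. It rose 1.56-fold (difference 0.64, SE 0.10, adjusted p = 0.0029).

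Phosphofructokinase, the committed and most regulated step of the chain, has 3 isoenzymes on the array. The platelet form Pfkp read 10.05, 10.05 and 9.99 in KO, against 9.36, 9.30 and 9.32 in WT, with SDs of 0.03 in both groups. It rose 1.63-fold (difference 0.70, SE 0.05, adjusted p = 5.7e-05). The liver form Pfkl read 9.20, 9.19 and 9.10 in KO and 9.25, 9.64 and 9.27 in WT, so every KO value was the lower, yet the difference of -0.22 did not pass (adjusted p = 0.23). The muscle form Pfkm read 9.41, 9.62 and 8.87 in KO and 8.86, 8.95 and 8.79 in WT. KO replicates 1 and 2 were above all WT values and KO replicate 3 was among them, and the difference of 0.43 had an adjusted p of 0.13.

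Aldolase cleaves fructose-1,6-bisphosphate into the triose phosphates that Tpi1 interconverts. Aldoa read 9.33, 9.27 and 9.73 in KO and 9.10, 8.90 and 8.95 in WT, without overlap. Its 1.38-fold rise passed narrowly (difference 0.46, SE 0.12, adjusted p = 0.032) and was lost when any 1 WT culture was left out (adjusted p 0.059 to 0.12). Tpi1 read 8.63, 8.73 and 8.76 in KO and 8.23, 8.08 and 8.12 in WT, and rose 1.48-fold (difference 0.56, SE 0.06, adjusted p = 5.2e-04).

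In the lower part of the chain, where ATP is gained, the probe of Gapdh, glyceraldehyde-3-phosphate dehydrogenase, was saturated on all 3 KO arrays and 1 WT array, with normalized log2 values of 14.85, 14.88 and 14.97 in KO and 14.71, 14.81 and 14.71 in WT, and its difference of 0.15 did not pass (adjusted p = 0.13). Pgk1, phosphoglycerate kinase, read 12.52, 12.20 and 11.57 in KO and 11.86, 11.63 and 11.51 in WT, and Pgam1, phosphoglycerate mutase, read 13.53, 13.35 and 12.54 in KO and 13.25, 13.14 and 12.99 in WT. In both genes KO replicate 3 was the lowest KO value and fell within or below the WT values, and neither passed (differences 0.43 and 0.01, adjusted p = 0.25 and 0.98). Leaving out KO replicate 3 gave differences of 0.70 for Pgk1 (adjusted p = 7.6e-04), 0.31 for Pgam1 (0.018), 0.64 for Pfkm (9.5e-05) and 0.87 for Pdha1 (0.0098). With that culture left out 11 of 17 glycolytic genes were higher in KO and 1 was lower. Calls over all probes rose as well, to 2656 higher and 3142 lower, against 2047 and 2372 with all cultures.

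Of the enolases, Eno1, the ubiquitous form, read 14.31, 14.33 and 14.38 in KO and 14.16, 14.33 and 14.21 in WT and differed by 0.11 (95% confidence interval -0.04 to 0.26, adjusted p = 0.32). Eno2, the neuronal form, was near background on every WT array and above it on every KO array, with 6.39, 6.38 and 6.44 in KO and 5.97, 6.12 and 6.06 in WT. It was at least 1.15-fold higher in KO (difference 0.35, adjusted p = 0.004). For genes near background on every array of 1 group, such a bound sets the brighter group's mean against, on each array of the dim group, the higher of the gene's own signal and the lowest signal marked above background. Pkm, pyruvate kinase, read 10.28, 9.73 and 10.40 in KO and 8.92, 9.70 and 9.91 in WT. Its groups overlapped and its difference of 0.63 (95% confidence interval 0.00 to 1.26) did not pass (adjusted p = 0.16).

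Lactate dehydrogenase is a tetramer of Ldha and Ldhb subunits. The A subunit predominates in tissues that make lactate and the B subunit in tissues such as heart that take it up. The RNAs of the subunits differed between the genotypes in opposite directions. Ldha read 14.52, 14.36 and 14.43 in KO and 13.85, 13.83 and 13.80 in WT, a 1.53-fold rise (difference 0.61, SE 0.06, adjusted p = 2.4e-04). Ldhb read 7.33, 7.60 and 7.64 in KO and 8.96, 9.08 and 9.01 in WT, and was 2.82-fold lower in KO (difference -1.50, SE 0.09, adjusted p = 1.8e-05). Neither gene's groups overlapped. Pdha1, a catalytic subunit of the pyruvate dehydrogenase complex that sends pyruvate into the mitochondrion's citric acid cycle, read 7.93, 7.83 and 7.42 in KO and 7.49, 7.05 and 6.49 in WT. Both groups were widely spread and the difference of 0.72 did not pass (adjusted p = 0.081).

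**Figure D2:**
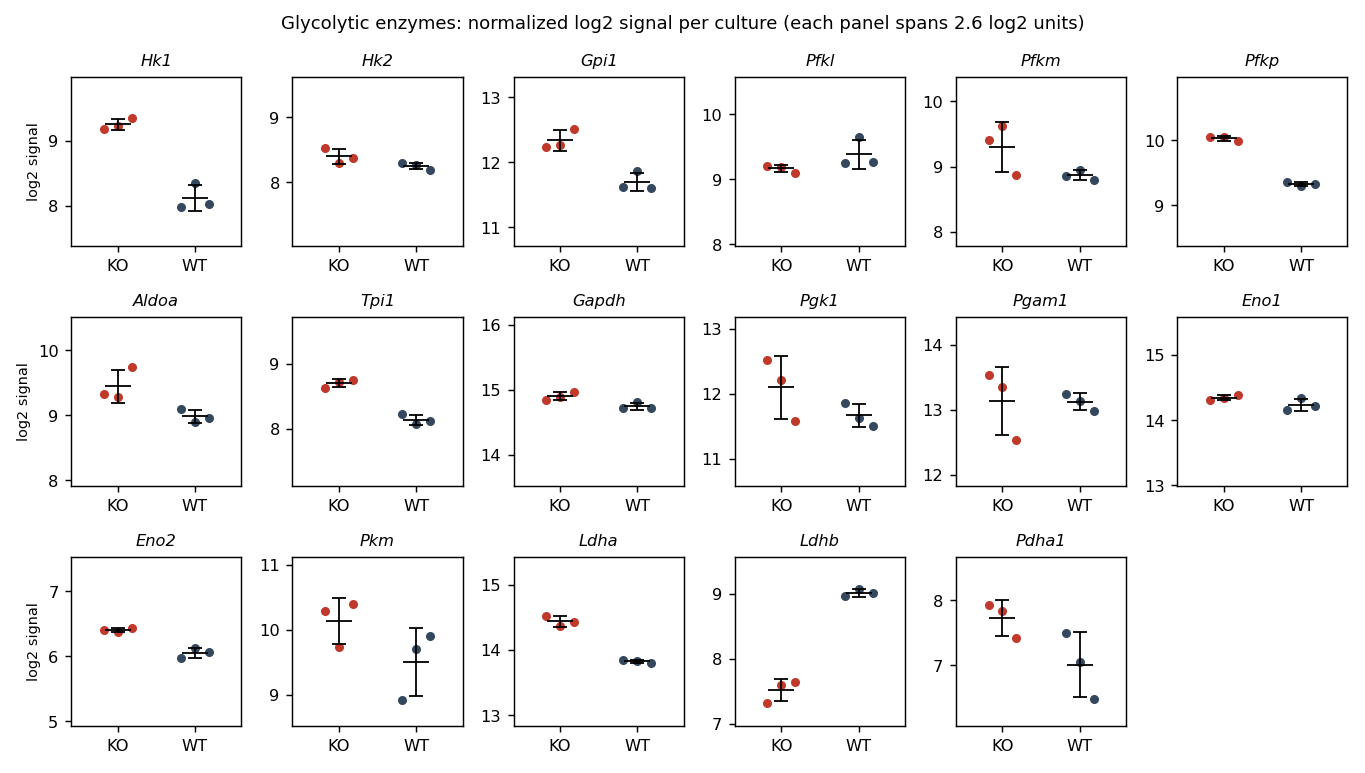
Normalized log2 signal (y axis) of each glycolytic gene in the 3 KO and 3 WT cultures; points are cultures, horizontal bars the mean and error bars ± 1 SD. Hk1, Gpi1, Pfkp, Aldoa, Tpi1, Gapdh, Eno2 and Ldha separate with KO above WT, and Pfkl and Ldhb separate with KO below WT. Of these, Gapdh and Pfkl did not pass the test. The KO points of Pgk1, Pgam1 and Pfkm are spread by the low KO replicate 3.

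Genes of related function were also set against each other within each culture, which removes what an array does to both probes alike. The pairs were picked after the values had been seen, so they are described without a test, and a log2 ratio of 2 probes shows unequal change, not which RNA is the more abundant. The log2 ratio of Ldha to Ldhb was 7.19, 6.76 and 6.79 in KO cultures and 4.89, 4.75 and 4.79 in WT cultures, 2.11 higher in KO. The ratio of Hk1 to Hk2 was 0.65, 0.93 and 0.97 in KO and -0.32, 0.09 and -0.17 in WT. KO also lay above WT without overlap for Pfkp over Pfkl (means 0.86 ± 0.02 in KO and -0.06 ± 0.25 in WT, SD, n = 3 each) and for Bnip3 over Bnip3l (means -0.03 ± 0.26 and -0.88 ± 0.20), but Pfkp over Pfkm overlapped (means 0.73 ± 0.35 and 0.46 ± 0.10). The ratio of Egln3 to Egln2 went the other way, with -1.94, -2.23 and -2.62 in KO and -0.23, -0.37 and -0.24 in WT.

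**Figure D3:**
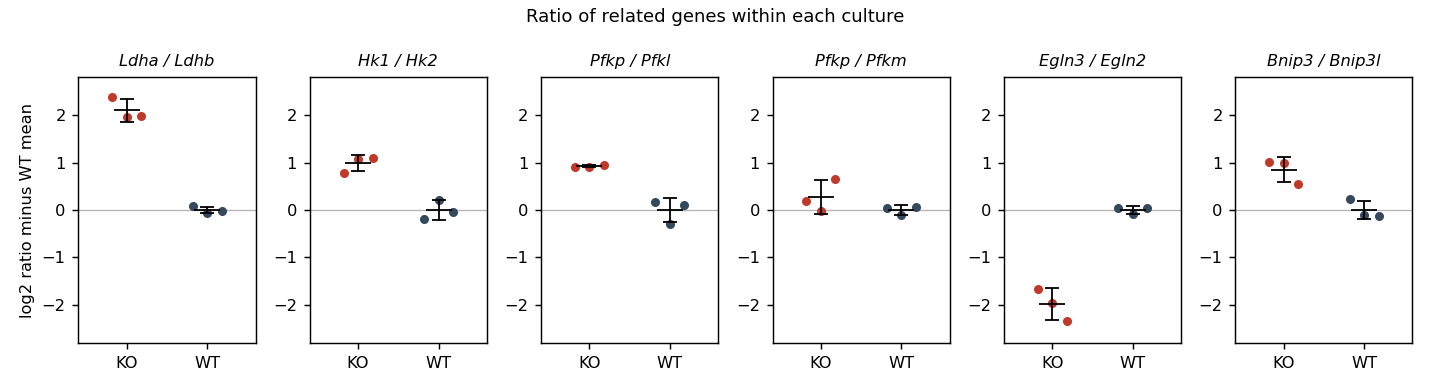
Log2 ratio of 2 related genes' signals minus the WT mean of that ratio (y axis, so WT centres on 0) in each of the 3 KO and 3 WT cultures; points are cultures, horizontal bars the mean and error bars ± 1 SD. KO lies above WT without overlap for Ldha over Ldhb, Hk1 over Hk2, Pfkp over Pfkl and Bnip3 over Bnip3l, below WT for Egln3 over Egln2, and overlaps for Pfkp over Pfkm.

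Among the HIF regulators, 1 of 6 genes tested rose in KO (Vhl), 1 fell (Egln3) and 4 did not pass, with a median difference of 0.01. These shares, 16.7% each, stand near those of all gene probes, 10.4% higher and 12.1% lower. For probes above background on all 6 arrays the shares were 18.8% and 22.2%. The RNAs of the HIF subunits themselves did not pass. Hif1a read 9.83, 9.50 and 9.07 in KO and 10.03, 9.63 and 9.46 in WT, a difference of -0.24 with overlap (95% confidence interval -0.73 to 0.24, adjusted p = 0.54). Epas1, the alpha subunit typical of endothelium, was near background on every array (5.92 to 5.99). Arnt, with 7.48, 7.58 and 7.75 in KO and 7.58, 7.74 and 7.50 in WT, averaged 7.60 ± 0.14 in KO and 7.61 ± 0.12 in WT (SD, n = 3 each; 95% confidence interval of the difference -0.21 to 0.21).

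Vhl, the part of the ubiquitin ligase that recognises hydroxylated HIF, read 7.23, 7.33 and 7.33 in KO and 6.90, 6.80 and 6.97 in WT. Its 1.32-fold rise was without overlap (difference 0.40, SE 0.06, adjusted p = 0.003). Of the prolyl hydroxylases, Egln2 read 8.39, 8.58 and 9.01 in KO and 8.09, 8.30 and 8.17 in WT, each KO value above each WT value, but its difference of 0.47 did not pass (adjusted p = 0.06). Without KO replicate 3 it passed (0.29, adjusted p = 0.017).

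Egln3 showed the smallest adjusted p of the set. Its background-subtracted intensity was 38.6, 29.9 and 28.2 units in KO cultures and 158, 181 and 161 units in WT cultures, before normalization. On the normalized log2 scale it read 6.45, 6.35 and 6.39 in KO and 7.86, 7.93 and 7.93 in WT. The groups were far apart for their spread, with Egln3 2.86-fold lower in KO (difference -1.52, SE 0.06, adjusted p = 1.5e-06) and above background on 2 of 3 KO arrays. The upstream window of Egln3 printed above held 1 core match, and the study's files hold no measure of binding at it.

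Of the genes listed as HIF targets, 4 of 6 tested rose in KO (Adm, Bnip3, Ndrg1 and Bhlhe40), none fell, and Bnip3l and Car9 did not pass. Their median difference was 0.29. Over all gene probes 10.4% were higher and 12.1% lower. The counts depend on how genes were listed. Egln3, which fell, and Hk2, which did not pass, are HIF targets counted in the other lists. HIF also raises many glycolytic genes, which are counted in the glycolytic list, where 7 of 17 rose and 1 fell. The rises of Adm and Bnip3 stood well beyond the spread between cultures. Those of Ndrg1 and Bhlhe40 were small on the normalized log2 scale, on which the background correction used here shrinks differences of dim probes.

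Adm encodes adrenomedullin, a secreted peptide that dilates blood vessels. Its background-subtracted intensity was 138, 163 and 198 units in KO and 2.41, 2.25 and 4.72 units in WT cultures. On the normalized log2 scale this was 7.42, 7.61 and 7.99 in KO and 5.83, 5.83 and 5.90 in WT. Adm was near background on every WT array and above it on every KO array, at least 2.77-fold higher in KO (difference 1.82, SE 0.13, adjusted p = 4.9e-05).

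Bnip3 encodes a mitochondrial outer-membrane protein that recruits the autophagy machinery to mitochondria. It read 10.22, 10.21 and 10.20 in KO and 9.09, 9.04 and 9.08 in WT, with SDs of 0.01 and 0.03. It was 2.21-fold higher in KO (difference 1.14, SE 0.05, adjusted p = 3.6e-06). Its relative Bnip3l, which acts in the same process, read 10.09, 10.11 and 10.52 in KO and 9.74, 10.02 and 10.08 in WT. The lowest KO value lay just above the highest WT value, and the difference of 0.29 did not pass (adjusted p = 0.20).

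Bhlhe40, a transcriptional repressor also tied to the circadian clock, read 6.68, 6.63 and 6.67 in KO and 6.35, 6.35 and 6.39 in WT, a 1.23-fold rise (difference 0.30, SE 0.05, adjusted p = 0.0044). Ndrg1, a stress-responsive gene, read 6.81, 6.78 and 6.76 in KO and 6.59, 6.64 and 6.53 in WT. Its 1.14-fold rise (difference 0.19, SE 0.06, adjusted p = 0.041) was lost under 10 of 15 alternative settings. The probes of Bhlhe40 and Ndrg1 were dim, so their folds depend on the offset added in the background correction. With that offset at 0 the limma log2 differences were 0.66 for Bhlhe40 (adjusted p = 0.018) and 0.38 for Ndrg1 (adjusted p = 0.12). Car9, a membrane carbonic anhydrase often used as a marker of hypoxia, read 5.97, 5.91 and 6.36 in KO and 6.27, 6.28 and 6.37 in WT. It was near background on every KO array and above it on every WT array, but the difference of -0.23 did not pass (adjusted p = 0.25). Without KO replicate 3, Car9 was lower in KO by 0.36 (adjusted p = 0.0012). Without KO replicate 3, 6 of 12 HIF regulators and targets were higher and 2 lower, against 5 and 1 with it, a setting under which calls also rose over all probes, as given above.

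**Figure D4:**
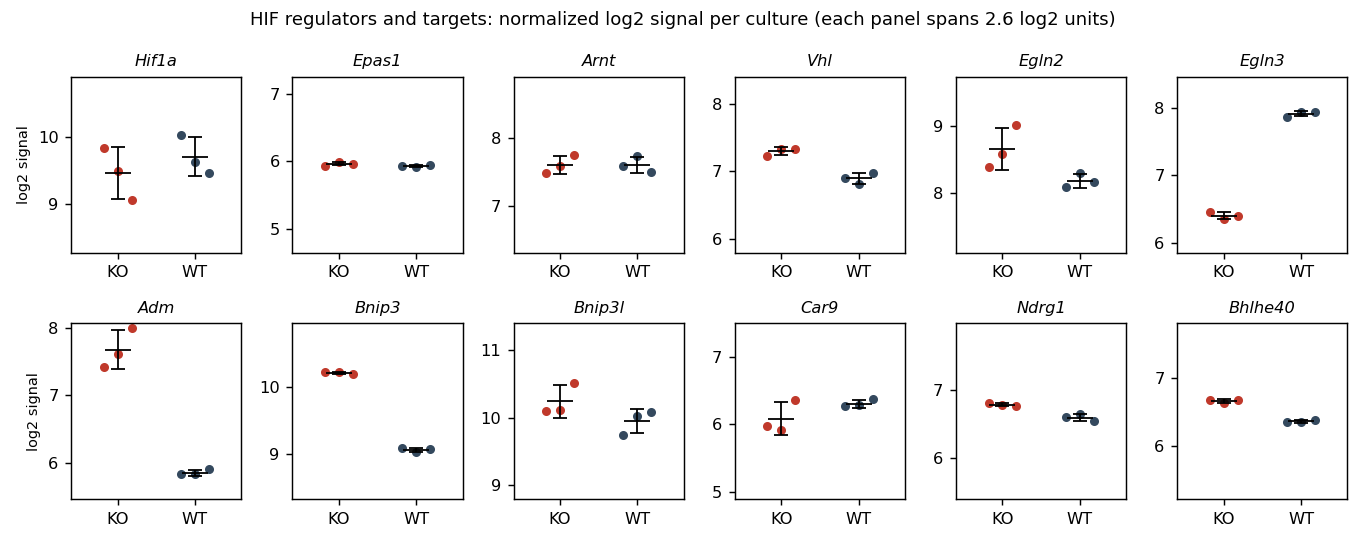
Normalized log2 signal (y axis, each panel spanning the same range) of each HIF regulator and target in the 3 KO and 3 WT cultures; points are cultures, horizontal bars the mean and error bars ± 1 SD. Adm and Bnip3 lie far above WT in KO, Egln3 lies far below, and Epas1, Arnt and Hif1a overlap.

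A wider list of 116 pathway genes that are not members was fitted in the same way. Of 83 genes tested, 17 were higher in KO and 14 lower, with a median difference of 0.03, and 28 were near background on every array. Without KO replicate 2 the count lower was 9. The tilt toward higher signal seen among the members was weaker in this list, 20.5% higher and 16.9% lower, although the difference between the lists was not tested. Over all gene probes the shares were 10.4% and 12.1%, and over probes above background on all 6 arrays 18.8% and 22.2%. The counts of the shorter lists below are to be read against these shares.

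Among transporters of glucose and monocarboxylates, 1 of 10 tested was higher and 1 lower (10.0% each, against 10.4% and 12.1% of all gene probes). Of these 10 genes, 5 were near background on every array, and Slc2a1 had no named probe. Slc16a3, the exporter of lactate from glycolytic cells, read 8.56, 8.74 and 9.04 in KO and 5.93, 5.82 and 5.77 in WT, near background on every WT array. It was at least 5.97-fold higher in KO (difference 2.94, SE 0.12, adjusted p = 2.3e-06). Mpc1, part of the carrier that brings pyruvate into mitochondria, was 1.39-fold lower (difference -0.48, adjusted p = 0.0028). The Mpc1 call was lost with the offset of the background correction at 0 in place of 50 (adjusted p = 0.059) and with median scaling (difference -0.27, adjusted p = 0.13). Its partner Mpc2 did not pass (difference -0.11, adjusted p = 0.44).

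Of 19 other glycolytic isoenzymes and side branches, 4 were higher in KO (21.1%) and none lower, and 12 were near background on every array. Eno3, the muscle enolase, read 12.58, 12.53 and 12.91 in KO and 11.01, 11.20 and 11.04 in WT, a 3.01-fold rise (difference 1.59, adjusted p = 3.4e-05). Bpgm, which makes 2,3-bisphosphoglycerate, was 2.77-fold higher (difference 1.47, adjusted p = 6.2e-04), Fbp2, the muscle fructose bisphosphatase, at least 1.27-fold (adjusted p = 1.3e-04) and Gpd2, the mitochondrial glycerol phosphate dehydrogenase, 1.57-fold (adjusted p = 0.041). With these, Eno2 and Eno3 rose while Eno1 did not pass.

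In the pyruvate dehydrogenase complex 2 of 4 genes were higher and none lower. Dlat, its acetyltransferase subunit, rose 1.45-fold (adjusted p = 0.002), and Pdk3, a kinase that inactivates the complex, rose 1.42-fold (adjusted p = 0.018). The call of Pdk3 was lost under 6 of 15 alternative settings. In the pentose phosphate pathway 1 of 5 was higher and 2 were lower. G6pdx, the entry enzyme of its oxidative branch, rose 1.31-fold (adjusted p = 0.0016), whereas Rpia and Rpe, which interconvert the pentose phosphates, were 2.01-fold (adjusted p = 4.5e-04) and 1.43-fold lower (adjusted p = 0.014).

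Of 12 other regulators of the HIF pathway none was higher and 3 were lower. The share lower was 25.0%, against 12.1% over all gene probes and 22.2% over probes above background on all 6 arrays. Cul2, the scaffold of the ubiquitin ligase that contains Vhl, was 1.88-fold lower in KO (difference -0.91, adjusted p = 1.1e-04), so that Vhl rose and its scaffold fell. Siah2, a ubiquitin ligase for Egln proteins, was 1.80-fold lower (adjusted p = 0.0022). Cops5, the catalytic subunit of the COP9 signalosome, was 2.19-fold lower (difference -1.13, adjusted p = 0.0094), with a wide spread in KO (9.26, 10.31 and 9.77, against 10.99, 10.85 and 10.88 in WT).

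Of 33 other HIF targets 9 were higher in KO (27.3%) and 8 lower (24.2%), with a median difference of 0.10. Stc2, a stanniocalcin that acts in calcium and phosphate balance, read 10.52, 10.72 and 11.15 in KO and 6.96, 6.97 and 6.91 in WT, a 14.4-fold rise (difference 3.85, SE 0.14, adjusted p = 1.5e-06), with a log2 difference of 4.56 at that offset of 0 and 4.69 with the authors' normalized values. Its relative Stc1 was at least 3.73-fold higher (adjusted p = 6.4e-07) and near background on every WT array. Plod1, a collagen lysyl hydroxylase, rose 1.92-fold (adjusted p = 3.8e-04). Hmox1, the haem oxygenase, which also answers to oxidative stress, was 2.04-fold lower (difference -1.03, adjusted p = 0.0014). Vegfa, the angiogenic growth factor, and Hilpda, a lipid-droplet protein, fall outside the rule for naming genes and were chosen after their values had been seen. Vegfa was 1.51-fold higher (adjusted p = 3.6e-04) and Hilpda 1.63-fold lower (adjusted p = 0.0044), so textbook HIF targets were found on both sides.

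**Figure D5:**
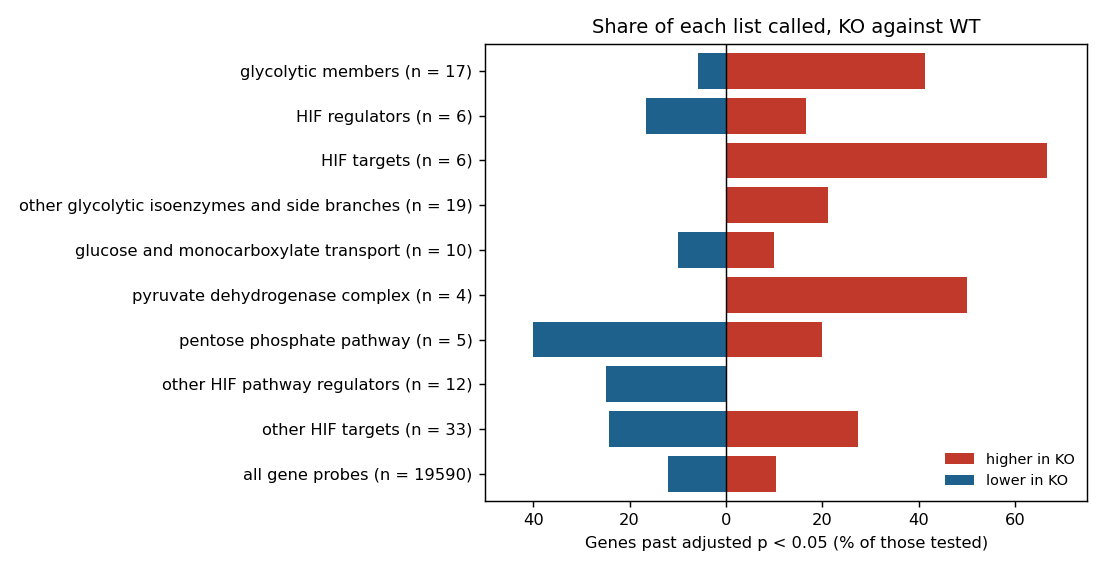
Share of the genes tested in each list (y axis, n in brackets) that were higher in KO (right) or lower in KO (left) at an adjusted p under 0.05 (x axis, % of those tested); the last bar is all 19590 gene probes, 10.4% higher and 12.1% lower. The glycolytic genes (41.2% higher, 5.9% lower) and the HIF targets (66.7% higher, none of 6 lower) lean to higher in KO, and the other HIF targets stand on both sides (27.3% and 24.2%). Egln3, a HIF target that was lower in KO, is counted with the HIF regulators.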

How the data were processed

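RNA of 6 cultures was read on 1 array each. The labels name Cy5 for the culture and Cy3 for a pool of its own genotype, but each deposited file holds 1 channel of intensity, taken here as the culture's. If the channel were the pool's, the arrays of a genotype would repeat 1 RNA. Per the file headers, each spot has a mean, a median and a local background intensity. The authors' expression value equals mean minus median background, and their normalized intensity is that value divided by 1 constant per array. The submitters' processing notes name limma. A name for the scanning software was not given in the sources used here. In the authors' value table the same normalized intensities stand (column medians 0.961 to 0.974, linear, not centred, 1 channel). Its columns for KO replicates 2 and 3 hold 99.9% of each other's file values, and the names inside those files are exchanged likewise. Replicates were numbered by title, which leaves the groups as they are.

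Masked, contaminated or irregular spots were left out. Background was corrected with normexp (offset 50) and log2 values were quantile normalized. KO and WT were compared with limma 3.58.1 under R 4.3.3 (lmFit, eBayes, two-sided, Benjamini-Hochberg over 19590 probes), which was tested on simulated data first. The offset draws differences of dim probes toward 0. Spots above background carry the scanner's own mark. Probes were named by RefSeq accession (10712) or a unique synonym (101) in a GRCm38.p6 table, and 8988 were unnamed. The brightest probe stands for a gene. Probe sequences were not used here, and whether a probe also reads processed copies of a glycolytic gene was not tested.

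Every member is named. From each wider list the genes past the threshold are named, at most the 4 with the largest difference among those exceeding background on every array of the higher group. Members, lists and rules were chosen with earlier results of these data known. Replicate numbers occur in both groups, but deviations of same-numbered cultures correlated at 0.24, -0.12 and 0.10, so the numbers were not used as pairs.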

Additional observations from a re-analysis of the deposited data

How the results depend on the processing

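Of the 14 members called, 12 kept direction and call under all 15 alternative settings. The setting that averaged the probes of a gene could not change a member's difference, since each member has 1 probe. Ndrg1 and Aldoa did not. No called member changed sign. Aldoa was lost at offset 0 (adjusted p = 0.13) and with the authors' normalized values (0.058). Leaving out 1 culture at a time gave 6 to 11 glycolytic genes higher in KO, 1 to 2 HIF regulators and targets lower, and 9 to 17 pathway list genes lower. The HIF count lower was also 2 with spot medians and with array weights. The pathway count lower, 14 as reported, was 9 at offset 0, 9 with median scaling and 8 with the authors' values. Over all probes median scaling put 64.1% of calls higher, against 46.3% as reported, with 1345 lower against 2372, and offset 0 gave 1386 higher and 1331 lower and the authors' values 1558 and 1469. The causes were not tested. Members not called as reported that passed under 1 or more settings were Pfkm, Gapdh, Pgk1, Pgam1, Pdha1, Egln2, Bnip3l and Car9, and with the authors' values Gapdh (-0.06), Eno1 (-0.12) and Pgam1 (-0.10), none of them called there, lay below 0. The replicate block, with 2027 higher and 2311 lower, called 8 glycolytic genes higher: Egln2 (adjusted p = 0.04) and Pdha1 (0.0047) passed and Ndrg1 (0.078) did not. The size of dim genes depends on the offset: at offset 0 the log2 difference was 4.36 for Adm, -2.49 for Egln3, 1.12 for Eno2, 0.66 for Bhlhe40, 0.64 for Vhl, 5.83 for Slc16a3, 2.32 for Bpgm, 2.77 for Fbp2, 3.87 for Stc1, 4.56 for Stc2, -0.87 for Car9 and -2.24 for Mapk14. Of the pathway genes named, Mpc1, Gpd2, Pdk3, G6pdx, Rpe, Siah2 and Cops5 lost their call under 1 or more settings. Signal near background limits Epas1, Car9, Eno2 and the WT values of Adm.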

Other observations

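Higd1a, a mitochondrial HIF target, entered no test because its spot was masked on every array but that of KO replicate 1. Its deposited background-subtracted intensities, with the masked spots included and without normalization, were 6207, 6468 and 4258 units in KO and 3986, 4109 and 3937 units in WT cultures. The spread between cultures was larger in KO for 19 of the 29 genes tested, and also for 12594 of all 19590 gene probes tested. The median SD of the 29 genes was 0.12 in KO and 0.08 in WT cultures, and over all probes these medians were 0.09 and 0.07.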
